A study of Mus musculus with 4 samples.

Results

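The neurotrophic factors and receptors examined here were 9 genes chosen by symbol: the ligands BDNF, NTF3 and GDNF, the receptors NGFR, NTRK2, NTRK3 and RET, and the co-receptors GFRA1 and GFRA2. RNA-seq of the lesion site listed 7 of the 9 among 14125 genes at 7 days post injury (dpi) and 6 among 11472 genes at 21 dpi. In all, 14718 genes were listed at either time and 10879 at both, and the 6 members listed at 21 dpi were also listed at 7 dpi. BDNF was listed at 7 dpi only, and NTF3 and GDNF were listed at neither time.

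Neurotrophins are secreted proteins that support the survival of neurons, the growth of their axons and the plasticity of their synapses. They act through Trk receptor tyrosine kinases and through the p75 neurotrophin receptor, which binds every mature neurotrophin and, with sortilin, their uncleaved precursors. GDNF family ligands work through a separate pair, a GFRA co-receptor anchored to the membrane by lipid and the shared kinase RET. In the spinal cord motor neurons carry RET and GFRA1, astrocytes carry a form of the NTRK2 protein without the kinase, and Schwann cells of injured nerve raise the p75 receptor.

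Spinal cord segments of about 4 mm around the injury were taken from male targeted replacement mice, in which a human ApoE3 or ApoE4 sequence stands in place of the mouse Apoe gene under the control of the mouse locus. All mice were 3 to 5 months old and received a 50 kdyne contusion at the T9 vertebra under isoflurane, so no group was uninjured. There were 4 groups of 3 mice: ApoE3 at 7 dpi, ApoE4 at 7 dpi, ApoE3 at 21 dpi and ApoE4 at 21 dpi. The table analysed here holds 1 value per gene and group, so no spread between mice could be computed from these values and no test was run here. The authors' own test results for the genotypes were not used.

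Levels are given as FPKM, fragments scaled to transcript length and to all mapped fragments, a unit that allows levels of genes of unequal length to be compared. The number of fragments behind each value is unknown, because FPKM do not keep it. Differences between groups are log2 ratios of FPKM + 1, minus the median of those genes whose FPKM averaged 1 or more, and they are called centred. They understate changes of genes near or below 1 FPKM. A gene was called higher in a group where its centred difference reached 1.3-fold, which is 0.38 on the log2 scale. That median was 0.0018 at 7 dpi and -0.42 at 21 dpi, where the median gene stood in ApoE3 at 0.746 of its ApoE4 level. The table can be read with either genotype first. Its comparison name puts ApoE3 first, the study reads it in that order, and this was followed, while its sample numbering puts ApoE4 first, and under that reading every genotype direction given here would be the opposite.

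Between genotypes, NGFR was the member that differed, and it did so at 21 dpi. At 7 dpi 0 of the 7 listed members were higher in ApoE3 and 0 were higher in ApoE4, where 3.76% and 4.82% of all 14125 genes were called. At 21 dpi 1 of the 6 listed members, NGFR, was higher in ApoE3, against 7.47% of all 11472 genes, and 0 were higher in ApoE4, against 8.06%. Without the subtraction of the median at 21 dpi, NGFR was still called higher in ApoE3, as were 2.02% of all genes, and NTRK2, GFRA1 and RET were called higher in ApoE4, as were 58.9% of all genes. The median centred difference of the listed members was 0.12 at 7 dpi and 0.06 at 21 dpi, and that of all genes was 0.00018 and 0.00036.

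**Figure D1:**
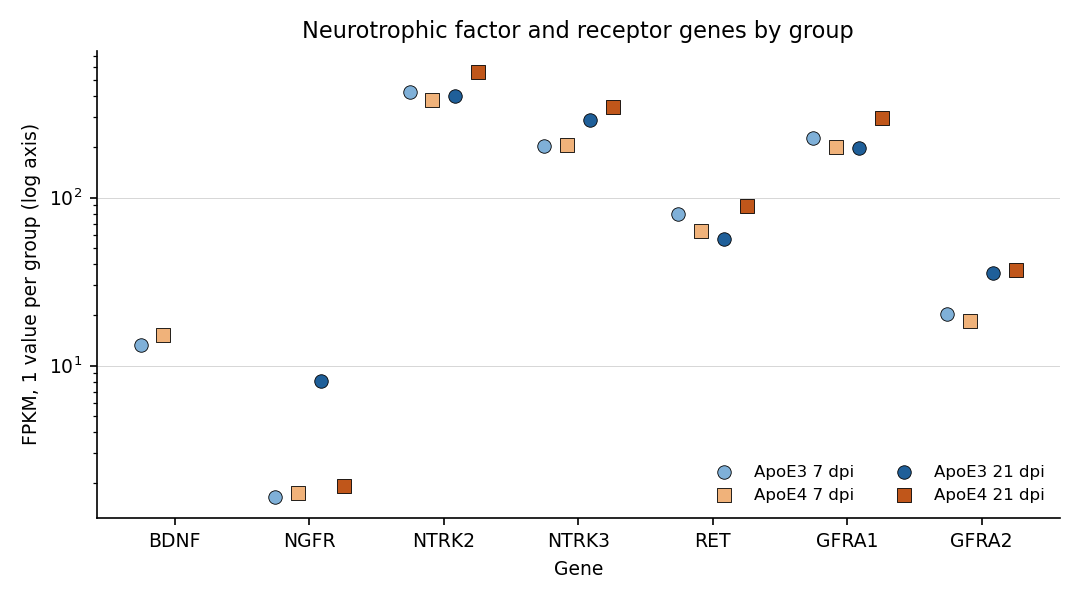
FPKM of the 7 listed members on a log axis, with 1 point per group (circles ApoE3, squares ApoE4, pale 7 dpi, dark 21 dpi). NTRK2 lay highest in every group, and NGFR lay lowest, at 1.66 to 1.91 FPKM in every group except ApoE3 at 21 dpi, where it was at 8.09.

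Among the ligands, BDNF, the neurotrophin that binds NTRK2, was at 13.3 FPKM at 7 dpi in ApoE3 and 15.2 in ApoE4. Its centred difference of -0.18 lay under 1.3-fold, and 33.2% of all genes lay at least as far from the median. At that time 10019 genes had higher FPKM in ApoE3 and 9629 in ApoE4, so BDNF stood in the lower part of the listed genes. GENCODE vM21 gives BDNF 11 coding transcripts with coding lengths of 747 to 867 bases, and RefSeq gives it 7 start sites. The value per gene does not separate them.

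NGFR encodes the p75 neurotrophin receptor. Its FPKM was 1.66 in ApoE3 and 1.74 in ApoE4 at 7 dpi, and 8.09 in ApoE3 and 1.91 in ApoE4 at 21 dpi. The ApoE3 group at 21 dpi thus stood apart from the other groups, which lay at 1.66 to 1.91 FPKM. The centred difference between genotypes was -0.05 at 7 dpi and 2.07 at 21 dpi, or 4.19-fold, and 35 of the 11472 genes at 21 dpi had a larger difference toward ApoE3. In either direction 0.593% of genes lay at least as far from the median as NGFR. With 13634 genes above it in ApoE3 at 7 dpi and 8690 at 21 dpi, NGFR stood at percentile 3.47 of the listed genes at 7 dpi and 24.2 at 21 dpi. In ApoE4 it stood at percentile 3.81 at 7 dpi and 3.45 at 21 dpi. At such low levels the size of the difference depends on the added constant, and it was 2.47 with 0.1 in place of 1.

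The sequence upstream of NGFR, the member with the genotype difference, is shown beside that of NTRK2, the most abundant member. Start sites were found in RefSeq for 6 of the 9 members, and each sequence covers 213 bases, from 250 to 38 bases before the start, 5′ to 3′. Capitals mark GC boxes, GGGCGG or its reverse complement CCGCCC, the motif bound by Sp family factors.
NGFR, chr11:95587736-95587948, minus strand, GRCm38.p6: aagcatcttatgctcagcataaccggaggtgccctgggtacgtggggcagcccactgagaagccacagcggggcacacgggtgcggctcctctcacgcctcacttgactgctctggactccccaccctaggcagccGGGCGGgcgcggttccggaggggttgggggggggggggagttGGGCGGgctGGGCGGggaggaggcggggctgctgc
NTRK2, chr13:58806319-58806531, plus strand, GRCm38.p6: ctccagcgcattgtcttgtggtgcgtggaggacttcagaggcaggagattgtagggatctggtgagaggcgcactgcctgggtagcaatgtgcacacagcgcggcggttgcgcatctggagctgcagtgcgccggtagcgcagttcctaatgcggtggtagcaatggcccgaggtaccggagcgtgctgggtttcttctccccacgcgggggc
The NGFR window held 3 GC boxes and had a GC content of 70.9%, and the NTRK2 window held 0 and had 62.9%. GC boxes were found in 27.4% of 32851 RefSeq windows of the same length, whose median GC content was 51.6%. Neither window held a TATA box (TATAAA, in 9.67% of windows), an E-box (CACGTG, in 4.79%) or a cAMP response element (TGACGTCA, in 1.07%), each searched on both strands, and none of these motifs overlaps another. The 37 bases next to the start were not searched, so a TATA box or other motif there would be missed. A match of letters is a description of the window and not a binding site.

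NTRK2 encodes TrkB, the kinase receptor for BDNF, and had the highest FPKM of the members in every group. It was at 426 FPKM at 7 dpi in ApoE3 and 378 in ApoE4, and at 402 and 559 at 21 dpi. Above it stood 679, 784, 637 and 593 listed genes in these groups. Its centred genotype differences of 0.17 at 7 dpi and -0.05 at 21 dpi lay under 1.3-fold. The uncentred difference at 21 dpi was -0.48, close to the shift of the median gene. GENCODE vM21 lists 7 coding transcripts of NTRK2 with coding lengths of 1398 to 2463 bases, and the value per gene does not separate forms with and without the kinase domain.

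NTRK3 encodes TrkC, the kinase receptor for the NTF3 protein. It was at 204 FPKM at 7 dpi in ApoE3 and 207 in ApoE4, and at 290 and 346 at 21 dpi. The centred genotype differences were -0.02 and 0.17, both under 1.3-fold. The second of these changed sign without centring, to -0.25. NTRK3 has 6 coding transcripts in GENCODE vM21, with coding lengths of 248 to 2592 bases, and the value per gene does not tell which of them were present. NTRK2, NTRK3, BDNF and GFRA1 each overlap a gene on the opposite strand in that annotation, and NTRK2 and NTRK3 also overlap 1 and 2 genes on their own strand. Whether strand was used in counting is not given in the sources used here, and strand does not separate genes on the same one. Reads from stretches that overlapping genes share therefore cannot be told apart. The overlaps were taken over whole gene spans, introns included, and none was with a protein-coding gene.

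RET encodes the receptor tyrosine kinase shared by the GDNF family ligands. Its FPKM was 79.7 in ApoE3 and 63.5 in ApoE4 at 7 dpi, and 56.9 and 89.0 at 21 dpi. ApoE3 had the larger value at 7 dpi and ApoE4 at 21 dpi. The centred difference was 0.32 at 7 dpi, the largest of the members at that time but still under 1.3-fold, and 809 of 14125 genes had a larger difference toward ApoE3. At 21 dpi it was -0.21, and -0.64 without centring.

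GFRA1 encodes the co-receptor that binds GDNF. It was at 228 FPKM at 7 dpi in ApoE3 and 200 in ApoE4, and at 198 and 297 at 21 dpi. Its centred differences were 0.18 and -0.16, with the same signs as those of RET. GFRA2 encodes the co-receptor for neurturin and was at 20.3 FPKM at 7 dpi in ApoE3 and 18.5 in ApoE4, and at 35.5 and 37.2 at 21 dpi. Its centred difference was 0.12 at 7 dpi and 0.36 at 21 dpi, the latter just under the 0.38 of the threshold, and at 21 dpi it changed sign without centring, to -0.07. With an added constant of 0.01 in place of 1, GFRA2 passed the threshold at 21 dpi.

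**Figure D2:**
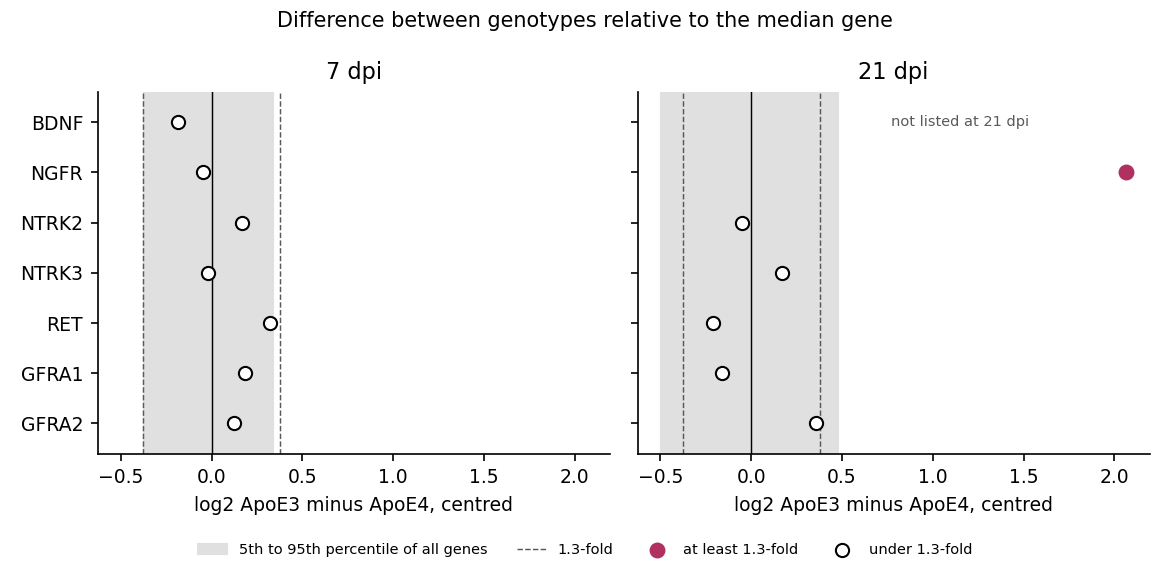
Centred log2 difference between ApoE3 and ApoE4 for each member at 7 dpi (left) and 21 dpi (right), with positive values higher in ApoE3. Grey bands span the 5th to 95th percentile of all genes, -0.37 to 0.34 at 7 dpi and -0.50 to 0.48 at 21 dpi, dashed lines mark 1.3-fold, and NGFR at 2.07 is the filled point.

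The order of the levels was nearly the same in all groups. NTRK2 was first, NTRK3 and GFRA1 followed, then RET, GFRA2, BDNF where listed, and NGFR last. GFRA1 stood above NTRK3 in ApoE3 at 7 dpi, at 228 and 204 FPKM, and below it in the other groups. As a ratio, NTRK3 and GFRA1 in ApoE4 at 7 dpi, at 207 and 200 FPKM, were the closest neighbours in the order. Without replicates it cannot be said which neighbours differ beyond their spread.

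Ratios between members within a group do not depend on how the groups were scaled. There was 2.09 times as much NTRK2 as NTRK3 in ApoE3 and 1.83 times as much in ApoE4 at 7 dpi, and 1.39 and 1.62 times as much at 21 dpi. The GFRA1 to RET ratio was 2.85 in ApoE3 and 3.15 in ApoE4 at 7 dpi, and 3.47 and 3.33 at 21 dpi. GFRA1 thus exceeded RET in every group. For GFRA2 the ratio to RET was 0.254 in ApoE3 and 0.291 in ApoE4 at 7 dpi, and 0.623 and 0.418 at 21 dpi. GFRA1 was above GFRA2 by 11.2 times in ApoE3 and 10.8 times in ApoE4 at 7 dpi, and by 5.57 and 7.97 times at 21 dpi. The GDNF and neurturin co-receptors therefore lay closer together at 21 dpi in both genotypes. NTRK2 exceeded NGFR 257 times in ApoE3 and 217 times in ApoE4 at 7 dpi, and 49.7 and 293 times at 21 dpi, so the balance of TrkB to p75 transcripts was lowest in ApoE3 at 21 dpi.

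Between 7 and 21 dpi, NGFR, GFRA2, NTRK3 and RET passed the threshold in ApoE3, and GFRA2 and NGFR passed it in ApoE4, NGFR with a sign that depended on centring. Whether both time points were normalised in 1 run is not given in the sources used here. In ApoE3, 3 of the 6 members listed at both times were called higher at 21 dpi and 1 was called lower, where 26.6% and 27.7% of all 10879 genes were called. In ApoE4, 1 of 6 was called higher and 1 lower, against 26.1% and 28.6% of all genes. Without centring 59.0% of all genes in ApoE4 were higher and 10.9% lower, as were 5 and 0 of the members. The subtracted medians were 0.089 in ApoE3 and 0.53 in ApoE4, and these comparisons share their groups with those between genotypes.

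NGFR had the largest time difference of the members in ApoE3, where it rose from 1.66 to 8.09 FPKM, a centred log2 difference of 1.68, and 32 of 10879 genes rose further. In ApoE4 its FPKM was 1.74 and 1.91, and the centred difference of -0.44 passed the threshold, but it was 0.09 without centring. GFRA2 was called higher at 21 dpi in both genotypes, with centred differences of 0.69 in ApoE3 and 0.45 in ApoE4, and was so without centring as well, at 0.78 and 0.97. At 1.5-fold GFRA2 was called in ApoE3 but not in ApoE4. NTRK3 rose in ApoE3 with a centred difference of 0.42, and had 0.21 in ApoE4. Without centring NTRK3 was called higher at 21 dpi in both genotypes, at 0.50 and 0.74. RET fell in ApoE3, with -0.57, and had -0.04 in ApoE4, or 0.48 without centring. NTRK2 had -0.17 in ApoE3 and 0.04 in ApoE4, and GFRA1 -0.29 and 0.04, all under 1.3-fold. Both were called higher at 21 dpi in ApoE4 without centring, at 0.56 each. The difference in time course between genotypes was not tested.
Cell type markers also changed between the time points. Among all 10879 genes, 26.6% were called higher and 27.7% lower at 21 dpi in ApoE3, and 26.1% and 28.6% in ApoE4. In ApoE4 these shares were 59.0% and 10.9% without centring. Of 7 neuron markers listed at both times 4 were called higher at 21 dpi in ApoE3 and 7 in ApoE4, and their summed level went from 4641 to 7209 FPKM in ApoE3 and from 3560 to 10486 in ApoE4, SNAP25 being the most abundant. Macrophage markers were called lower at 21 dpi for 4 of 4 in both genotypes, with sums from 6034 to 336 FPKM in ApoE3 and from 7951 to 631 in ApoE4, led by LYZ2. Fibroblast markers were lower for 6 of 7 in ApoE3 and 7 of 7 in ApoE4, with sums from 743 to 119 and from 1007 to 75.1 FPKM, COL1A1 being the most abundant at 7 dpi. Microglial markers were lower for 5 of 6 in ApoE3 and 4 of 6 in ApoE4, or 3 without centring. Their sums went from 715 to 350 and from 773 to 615 FPKM. In ApoE4 SIGLECH was called higher, at 104 FPKM at 7 dpi and 237 at 21 dpi. Astrocyte markers went both ways, with 2 of 10 higher and 4 lower in ApoE3, and 2 higher and 3 lower in ApoE4. The ApoE4 counts were 5 higher and 1 lower without centring. Of 3 Schwann cell markers 2 were higher at 21 dpi in ApoE3, and 1 was higher and 2 were lower in ApoE4. The lower calls in ApoE4, EGR2 and CDH19, were lost without centring, at -0.16 and -0.26. Sensory ganglion markers were higher at 21 dpi for 2 of 2 in both genotypes. Skeletal muscle markers were lower for 4 of 4 in ApoE3 and higher for 4 of 4 in ApoE4. The muscle sums went from 56.9 to 27.5 FPKM in ApoE3 and from 38.7 to 654 in ApoE4. None of these markers was at 0 in any group, and the part of these cells in the members' time differences was not tested.

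**Figure D3:**
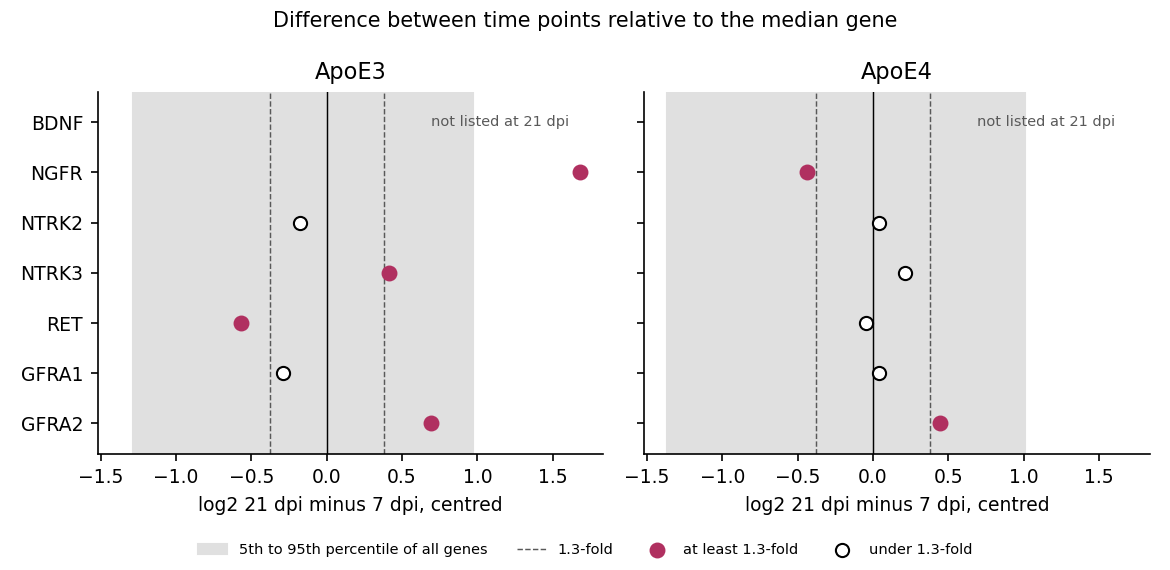
Centred log2 difference between 21 and 7 dpi for each member in ApoE3 (left) and ApoE4 (right), with positive values higher at 21 dpi. Grey bands span the 5th to 95th percentile of all genes, -1.28 to 0.97 in ApoE3 and -1.37 to 1.01 in ApoE4, dashed lines mark 1.3-fold, and NGFR in ApoE3 at 1.68 is the point outside the band.

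The genes with the profile most like that of each member were found by the Euclidean distance between log2 profiles over the 4 groups, each centred on its own mean, among 10863 genes. For NGFR the closest were DRP2 at a distance of 0.24 and FAM166B at 0.35. DRP2 was at 83.9 FPKM at 7 dpi in ApoE3 and 81.7 in ApoE4, and at 294 and 109 at 21 dpi. Few genes lay close to NGFR, with 0 genes within a distance of 0.1 and 4 within 0.5. By contrast 153 genes lay within 0.1 of NTRK2, 162 of NTRK3, 147 of GFRA1, 31 of RET and 26 of GFRA2. Profiles were not scaled by the size of the change, so genes with large differences have few close genes by construction. The closest to NTRK2 were SOCS7 and PDHX, those to NTRK3 LSM8 and BCL7A, and those to GFRA1 LMBR1 and ADAMTSL1, all at distances of 0.01 to 0.02. For RET the closest gene was NRXN3 at 0.03, and for GFRA2 it was MRPS35 at 0.03.

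Markers of peripheral nerve were, like NGFR, higher in ApoE3 at 21 dpi, and so were 5 of 8 fibroblast markers, or 3 without centring. Of 9 Schwann cell markers 8 were listed at 21 dpi and 7 of them were called higher in ApoE3, or 6 without centring, with a median centred difference of 1.94. Over all genes the share called higher in ApoE3 was 7.47%, or 2.02% without centring. Only 3 of the 8, NCMAP, EGR2 and CDH19, were also listed at 7 dpi, and of these NCMAP and EGR2 were called. The others, such as CLDN19 at 18.6 FPKM in ApoE3 and 0.188 in ApoE4, may be listed through the group where they were high. Their calls may thus follow from the listing. The summed level of the 8 markers at 21 dpi was 267 FPKM in ApoE3 and 115 in ApoE4, and 76.3 and 95.6 for the 3 listed at 7 dpi. The most abundant in ApoE3 at 21 dpi, NCMAP, a protein of noncompact peripheral myelin, was at 10.2 and 7.59 FPKM at 7 dpi and at 122 and 35.7 at 21 dpi. EGR2, a transcription factor of myelinating Schwann cells and the most abundant in the other groups, was at 33.1 FPKM in ApoE3 and 51.6 in ApoE4 at that time and at 73.0 and 46.1 at 21 dpi. Without NCMAP the sums at 21 dpi were 145 and 79.2. None of the listed Schwann cell markers was at 0 in any group.
Of 10 sensory ganglion markers 9 were listed at 21 dpi, and 8 of them were higher in ApoE3, with or without centring, against 7.47% or 2.02% of all genes. Only 2 of the 9, POU4F1 and CALCA, were also listed at 7 dpi, and of these POU4F1 was called. Some of the others, such as SCN10A at 20.1 FPKM in ApoE3 and 0.153 in ApoE4, may be listed through the group where they were high. Their calls may thus follow from the listing. The summed level of the 9 markers at 21 dpi was 837 FPKM in ApoE3 and 864 in ApoE4, and 491 and 370.2 for the 3 listed at 7 dpi. CALCA was the most abundant, at 702 FPKM at 21 dpi in ApoE3 and 829.5 in ApoE4, and the sums without it were 135 and 34.9. TRPV1 and MRGPRD were at 0 in ApoE4, and at 1.61 and 1.80 FPKM in ApoE3. Skeletal muscle markers moved the other way, with 6 of the 6 listed at 21 dpi higher in ApoE4, against 8.06% of all genes, and likewise 6 without centring, against 58.9%. TNNT3, the most abundant of them, was at 22.5 FPKM in ApoE3 and 515 in ApoE4, MYH4 was at 0 in ApoE3, and the sums were 28.0 and 676 FPKM. At 7 dpi 4 muscle markers were listed, with sums of 56.9 and 38.7 FPKM. All 4 were among the 6 called at 21 dpi. The others, MYH4 and ATP2A1, may be listed through the group where they were high, so their calls may follow from the listing. The part of these tissues in the NGFR difference was not tested, and fewer cells of a type and less RNA per cell cannot be told apart in such segments.

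**Figure D4:**
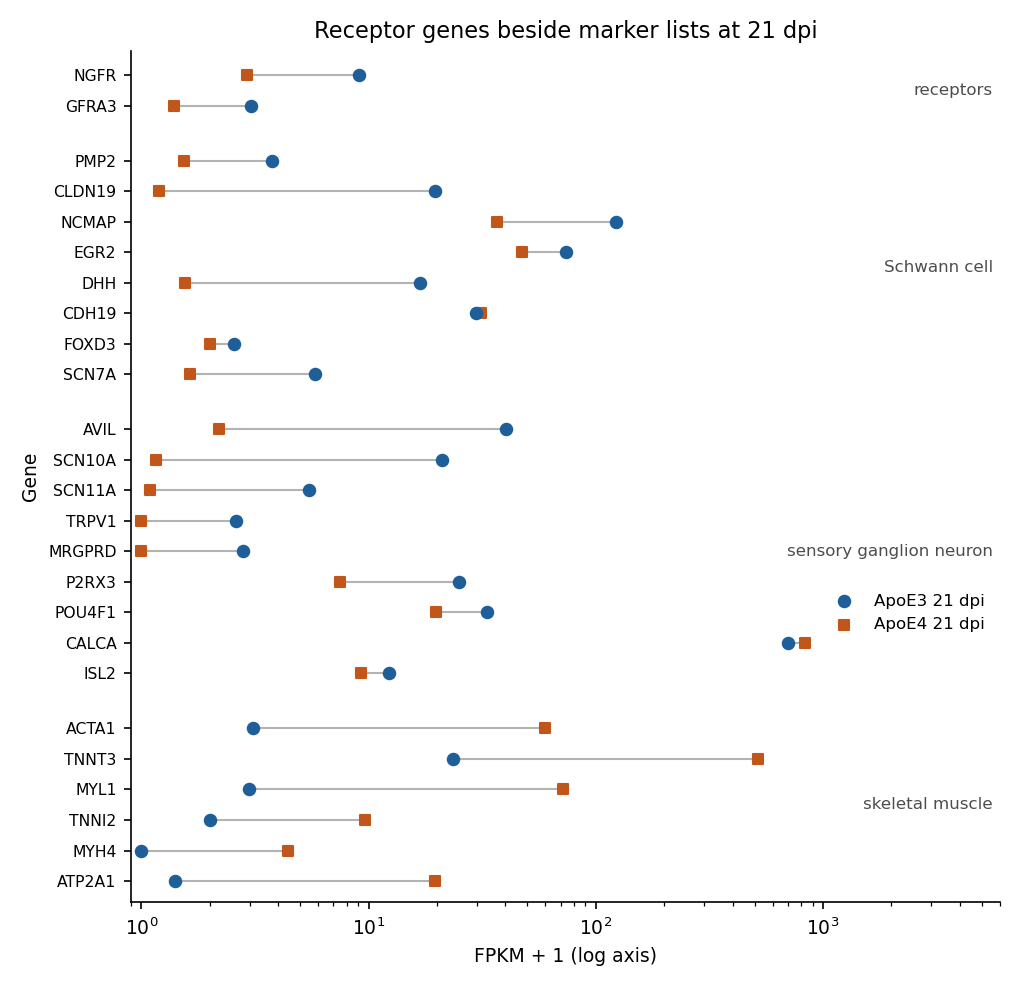
FPKM + 1 at 21 dpi on a log axis for NGFR and the co-receptor GFRA3 of the pathway lists, beside the markers of Schwann cells, sensory ganglion neurons and skeletal muscle (circles ApoE3, squares ApoE4). Receptors and most nerve markers lie to the right in ApoE3, with NCMAP at 122 against 35.7 FPKM, and all 6 muscle markers lie to the right in ApoE4. Some genes listed at 21 dpi only, such as GFRA3 and ATP2A1, may be listed through the group where they were high.

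The other genes of these pathways were examined in 6 lists with 74 genes. At 7 dpi 65 were listed, of which 1 was higher in ApoE3 and 5 in ApoE4, against 3.76% and 4.82% of all genes, with a median centred difference of 0.03. At 21 dpi 48 were listed, of which 3 were higher in ApoE3 and 6 in ApoE4, against 7.47% and 8.06%, with a median of 0.02. Without centring 1 was higher in ApoE3 and 26 in ApoE4 at 21 dpi, against 2.02% and 58.9% of all genes.

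The list of other neurotrophins and receptors gave no call between genotypes, in 4 listed genes of 6 at 7 dpi, where 3.76% and 4.82% of all genes were called, or in 5 at 21 dpi, where 7.47% and 8.06% were. Without centring 2 of the 5 were higher in ApoE4 at 21 dpi, against 58.9%. SORT1, the sortilin that pairs with the NGFR protein to bind neurotrophin precursors, was at 295 FPKM at 21 dpi in ApoE3 and 378 in ApoE4, with a centred difference of 0.07. SORL1, a related sorting receptor, was at 92.9 and 75.5 FPKM at 7 dpi and at 54.5 and 83.5 at 21 dpi, with centred differences of 0.29 and -0.18.

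Among the other GDNF family ligands and receptors 0 of 4 listed genes were higher in ApoE3 and 2 were higher in ApoE4 at 7 dpi, against 3.76% and 4.82% of all genes. At 21 dpi 1 of 3 was higher in ApoE3 and 1 in ApoE4, against 7.47% and 8.06%. GFRA3, the co-receptor for artemin on sensory neurons, was at 2.04 FPKM at 21 dpi in ApoE3 and 0.387 in ApoE4, with a centred difference of 1.56. It was not listed at 7 dpi and may be listed through the group where it was high. Its call may thus follow from the listing. GDF15, a distant relative whose receptor also signals through RET, was at 13.2 FPKM at 7 dpi in ApoE3 and 27.6 in ApoE4, a centred difference of -1.01. NRTN, which encodes the GFRA2 ligand neurturin and was named after its values were seen, was higher in ApoE4 at both times. It was at 2.41 FPKM at 7 dpi in ApoE3 and 4.08 in ApoE4, and at 8.37 and 17.7 at 21 dpi. GFRA4, the co-receptor for persephin, was at 167 and 140 FPKM at 7 dpi and at 448 and 553 at 21 dpi, and passed the threshold between time points in both genotypes. NCAM1, an alternative GDNF receptor, was at 3430 FPKM at 7 dpi in ApoE3 and 3205 in ApoE4.

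Of 8 genes for neurotrophin processing, 1 of the 7 listed was higher in ApoE3 at 7 dpi, against 3.76% of all genes, and 1 of the 4 listed was higher in ApoE4 at 21 dpi, against 8.06%, or 2 without centring, against 58.9%. Both centred counts were PCSK1, a convertase of secretory granules named after its values were seen, at 20.0 FPKM at 7 dpi in ApoE3 and 13.0 in ApoE4 and at 12.6 and 25.9 at 21 dpi. The most abundant at 7 dpi, FURIN, which cleaves neurotrophin precursors, was at 289 and 305 FPKM at 7 dpi. PCSK7 was at 68.6 and 76.8.

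Of 23 adaptors and signalling proteins of Trk and RET 20 were listed at 7 dpi and none was called, against 3.76% and 4.82% of all genes. At 21 dpi 0 of 16 were higher in ApoE3 and 1 was higher in ApoE4, against 7.47% and 8.06% of all genes. That gene, SHC3, a neuronal adaptor of Trk receptors named after its values were seen, was at 3.41 FPKM in ApoE3 and 9.87 in ApoE4. The centred differences of the 16 ran from -0.88 to 0.34, and 11 of them were higher in ApoE4 without centring, against 58.9% of all genes. KIDINS220, a scaffold bound by Trk receptors and p75, was at 708 FPKM at 7 dpi in ApoE3 and 677 in ApoE4 and at 733 and 978 at 21 dpi, and its centred differences were 0.06 and 0.01. RAPGEF1, which links Trk receptors to Rap activation, had centred differences of -0.01 at both times.
Partners of the p75 receptor gave no call between genotypes, in 13 listed genes at 7 dpi, where 3.76% and 4.82% of all genes were called, or in 9 at 21 dpi, where 7.47% and 8.06% were. Without centring 4 of the 9 were higher in ApoE4 at 21 dpi, against 58.9%. ARHGDIA, a GTPase inhibitor to which p75 binds, was at 560 FPKM at 7 dpi in ApoE3 and 601 in ApoE4 and at 513 and 632 at 21 dpi. BEX3, an adaptor that binds the p75 death domain, was at 318 and 275 FPKM at 7 dpi and at 725 and 932 at 21 dpi.

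In the list of other trophic factors and receptors 0 of 17 genes were higher in ApoE3 and 3 were higher in ApoE4 at 7 dpi, against 3.76% and 4.82% of all genes. At 21 dpi 2 of 11 were higher in ApoE3 and 3 in ApoE4, against 7.47% and 8.06%, and without centring 0 and 6, against 2.02% and 58.9%. VGF, a secreted protein induced by BDNF, was at 2012 FPKM at 7 dpi in ApoE3 and 1710 in ApoE4 and at 1610 and 3539 at 21 dpi, with centred differences of 0.23 and -0.71. CNTFR, the receptor for ciliary neurotrophic factor, was at 581 and 599 FPKM at 7 dpi. Those called at 7 dpi, named after their values were seen, were LIF, CLCF1 and MANF. At 21 dpi CNTF and CLCF1 were higher in ApoE3, and LIFR, IGF1 and VGF in ApoE4. Without centring, CNTF at 0.15 and CLCF1 at 0.19 lay under the threshold.

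**Figure D5:**
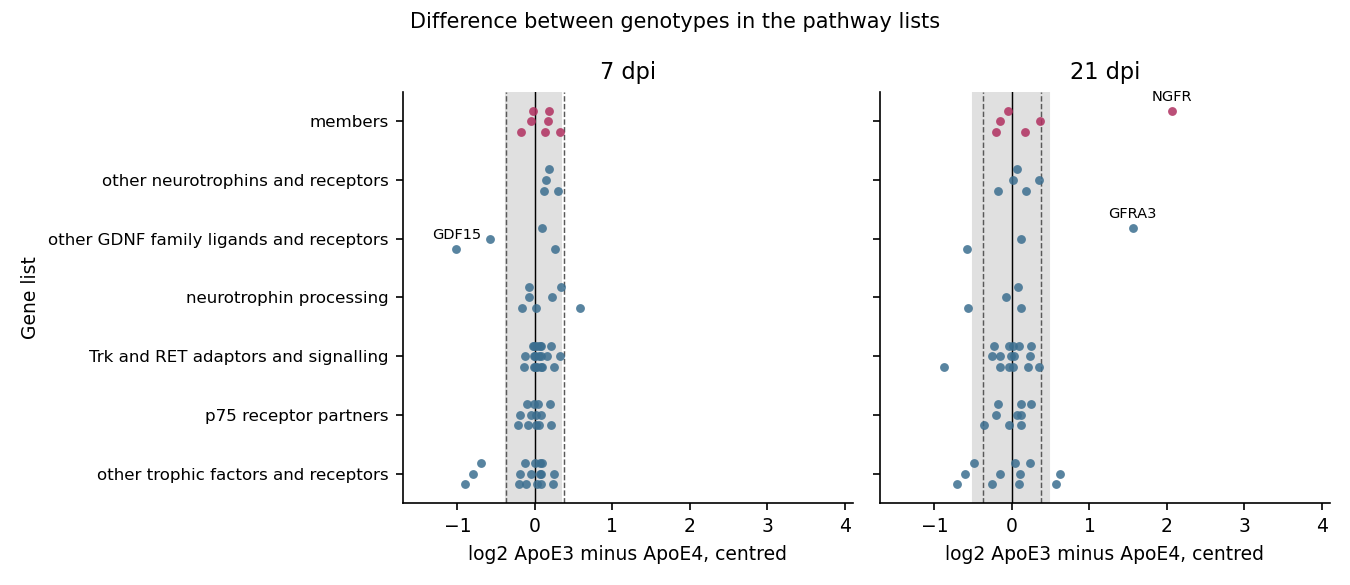
Centred log2 difference between ApoE3 and ApoE4 at 7 dpi (left) and 21 dpi (right) for the members and the genes of 6 pathway lists, 1 point per listed gene, with gene names where the difference is at least 1 in either direction. Most points lie inside the grey 5th to 95th percentile band of all genes, and NGFR and GFRA3 lie far to the ApoE3 side at 21 dpi. GFRA3 was not listed at 7 dpi and may be listed through the group where it was high.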

How the data were processed

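RNA of lesion segments was extracted with TRIzol and made into libraries with the TruSeq RNA Sample Prep Kit v2. The submitters' processing notes name STAR 2.5.4b, Bowtie2 2.1.10, SAMtools 0.1.7 and Cuffdiff 1.3.0, and the genome build and annotation are not given in the sources used here. The authors down-sampled all libraries to the same number of reads and deposited FPKM plus 1 as 1 value per gene, genotype and time point. In 1 library a smaller share of reads aligned than in the rest, and its group is not given in the sources used here. From the deposited values 1 was subtracted. FPKM do not keep the reads behind each gene, so the depth per gene is unknown and counting error could not be computed. For each row the deposited tables also hold p-values, q-values, fold changes, log2 fold changes and a mark of significance from the authors' comparison of genotypes, and none of these were used. Both value columns used were assigned to groups, and 0 were unassigned.

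Of 2 symbols that were on 2 rows at each time point, the row with the higher mean FPKM was kept. The log2 ratio of FPKM + 1 was centred on the median over all genes whose FPKM averaged 1 or more, and 1.3-fold was the threshold. With 1 value per group no test was run. The procedure was tested on simulated data made from ApoE4 values, which left out genes as low as NGFR. That test does not cover calls at such levels. The members and lists were chosen with earlier results of these data known. The rule for named genes takes the 9 members, in each pathway list the 2 genes with the highest mean FPKM and every gene at least 2-fold apart between genotypes, in each marker list the most abundant gene and those at 0, and for each member up to 3 genes nearest in profile. Other genes were named after their values were seen, as were the marker genes drawn beside them. Some genes of the lists are not reported here, and the lists were counted without them. Of the 172 genes kept in the pathway and marker lists, 158 were listed, 1 of them under a newer RefSeq symbol (NGFRAP1 as BEX3).

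The alternatives were no centring, the median over all listed genes, added constants of 0.1 and 0.01, thresholds of 1.5-fold and 2-fold, and a minimum mean FPKM of 1. Transcripts were taken from GENCODE vM21 and start sites from RefSeq GRCm38.p6. Upstream windows end 38 bases before the start, because GENCODE places the NGFR start 37 bases further upstream. Scripts were written for Python 3.11.15 and used pandas 2.3.3, numpy 2.4.6 and matplotlib 3.10.9.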

Additional observations from a re-analysis of the deposited data

How the results depend on the processing

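Alternatives were run on the log2 differences and on the counts of members called. Of 100 member values recomputed with other centring or another added constant, 84 moved by less than 0.1, 15 moved further and 1 changed the sign of a called value. That value was NGFR between time points in ApoE4, which was 0.085 without centring. Without centring 3 members were higher in ApoE4 at 21 dpi, and in ApoE4 5 members were higher and 0 lower at 21 dpi than at 7 dpi. These changes follow from the shift of the median gene. With an added constant of 0.01, 2 members were higher in ApoE3 at 21 dpi. At a threshold of 2-fold 1 member was higher at 21 dpi than at 7 dpi in ApoE3, and 0 were lower at 1.5-fold or 2-fold. In ApoE4 0 members were higher and 0 lower between time points at 1.5-fold, and likewise 0 and 0 at 2-fold. NGFR was called higher in ApoE3 at 21 dpi under every alternative run.
No paired analysis was possible because each group has 1 value per gene. For the same reason no mouse was left out. Depth per gene is unknown, which bears on genes of low FPKM such as NGFR and GFRA3.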

Other observations

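The other marker lists give the cell types of the cord beside which the members' values stand. Over all genes 3.76% were higher in ApoE3 and 4.82% in ApoE4 at 7 dpi, and 7.47% and 8.06% at 21 dpi. At 7 dpi, where RET and GFRA1 had centred differences of 0.32 and 0.18, 3 of 9 neuron markers and 1 of 3 motor neuron markers were higher in ApoE3, and 0 of either list were higher in ApoE4. SNAP25, the most abundant neuron marker, was at 3366 FPKM at 7 dpi in ApoE3 and 2545 in ApoE4 and at 5336 and 7812 at 21 dpi. At 21 dpi 0 of 7 neuron and 0 of 3 motor neuron markers were higher in ApoE3, and 1 of each list was higher in ApoE4. Of 10 astrocyte markers 0 were called at 7 dpi, and 2 were higher in ApoE4 at 21 dpi, GFAP being the most abundant. Their part in the RET, GFRA1 and NTRK2 values was not tested.
No oligodendrocyte marker was called between genotypes in 7 listed at 7 dpi or 8 at 21 dpi, with MBP the most abundant. Of 5 oligodendrocyte precursor markers, led by PDGFRA, 1 was higher in ApoE4 at each time. Microglial markers, led by FCRLS at 7 dpi and SIGLECH at 21 dpi, were higher in ApoE4 for 1 of 7 and 2 of 6, and macrophage markers, led by LYZ2, for 4 of 9 and 2 of 4. Of fibroblast markers 3 of 7 were higher in ApoE4 at 7 dpi, with COL1A1 the most abundant, and 5 of 8 were higher in ApoE3 at 21 dpi. Without centring 3 of 8 were, DCN, COL1A2 and LUM, and 1 was higher in ApoE4. COL1A1 at 0.08 and COL3A1 at 0.25 lost the call, and the list median was 0.16 in place of 0.59. DCN was at 45.7 FPKM at 7 dpi in ApoE3 and 56.6 in ApoE4, and at 61.9 and 9.37 at 21 dpi. Its centred difference at 21 dpi was 3.02, or 2.60 without centring, and 15 genes had a larger difference toward ApoE3. FN1, the most abundant at 21 dpi, was not called, at 454 FPKM in ApoE3 and 511 in ApoE4. Endothelial markers, led by FLT1, gave 0 calls of 6 at 7 dpi and 1 of 5 at 21 dpi, CDH5 toward ApoE3, which was at 0.07 without centring. Without centring at 21 dpi, 10 astrocyte, 8 oligodendrocyte, 6 microglial, 4 macrophage and 3 motor neuron markers, all that were listed, were higher in ApoE4, as were 5 of 7 neuron and 3 of 5 oligodendrocyte precursor markers and 58.9% of all genes. COL3A1, DCN, COL1A2, LUM and CDH5 were named after their values were seen. No listed gene of these 9 lists was at 0.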
